A study of Mus musculus with 30 samples.

Results

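The comparison was that of Tmem106b -/- brains (knockout, KO) with Tmem106b +/+ brains (wild type, WT) among the mice labelled cohort 1. These were 12 of the 30 libraries of the study, 6 KO and 6 WT, chosen by the genotype and cohort labels alone. All were mice of 8 months, with 3 females and 3 males in each group and no treatment named. RNA came from the cerebral hemispheres, was extracted with a column kit in a single run for the whole study, and was read by RNA sequencing. Each library is 1 mouse. The RNA integrity number (RIN, a scale of RNA quality) was 9.40 ± 0.19 (SD, n = 6) in WT and 9.42 ± 0.37 (SD, n = 6) in KO. Tmem106b +/- mice of cohort 1 (HET, n = 6) and the KO and WT mice of cohort 2 (4 each, also of 8 months) are set beside the comparison where they bear on it. The sources used here name neither the meaning of the cohort number nor the mouse strain, the targeted exons or the hour at which each brain was taken.

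Tmem106b encodes a transmembrane protein of late endosomes and lysosomes, the compartments in which cells break down proteins and lipids, and variants at the human gene are linked to frontotemporal dementia. Oligodendrocytes are the glia that wrap axons in myelin, a lipid-rich membrane held together by a small set of abundant proteins. The circadian clock is a loop of transcription factors present in most cells: Arntl (BMAL1) and its partners switch on the Per, Cry, Nr1d and Bhlhe40/41 repressors and the PAR bZIP factors Dbp, Tef and Hlf, whose RNA levels then swing over the day in brain as elsewhere. The cerebral vessels are lined by endothelium sealed with tight junctions, resting on a basement membrane rich in type IV collagen and surrounded by mural cells and, at the surface, by meningeal fibroblasts.

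Clock genes formed the group with the largest share of members that differed between KO and WT, and they are known to be driven through short promoter sequences. These are the E-box (CACGTG), bound by Arntl with its partners, and the D-box (here TTATGTAA), bound by Dbp, Tef, Hlf and the repressor Nfil3. The 250 bases before the start site of 4 of these genes are shown 5′ to 3′ on the gene's strand, from RefSeq on GRCm38.p6, with both motifs in capitals. They are Ciart at chr3:95882229-95882478 (minus strand), Per3 at chr4:151044666-151044915 (minus), Bhlhe41 at chr6:145865421-145865670 (minus) and 1 of the 2 promoters of Tef at chr15:81811164-81811413 (plus).
Ciart: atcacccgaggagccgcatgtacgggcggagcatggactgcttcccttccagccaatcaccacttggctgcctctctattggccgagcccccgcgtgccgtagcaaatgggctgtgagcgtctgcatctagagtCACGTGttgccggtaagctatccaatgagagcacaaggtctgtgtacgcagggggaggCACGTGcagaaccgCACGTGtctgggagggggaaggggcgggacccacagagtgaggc
Per3: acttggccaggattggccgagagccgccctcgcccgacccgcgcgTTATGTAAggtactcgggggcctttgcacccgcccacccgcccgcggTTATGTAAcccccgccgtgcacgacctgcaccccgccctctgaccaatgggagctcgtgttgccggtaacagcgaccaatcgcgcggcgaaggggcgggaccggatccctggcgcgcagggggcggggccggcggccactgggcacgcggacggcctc
Bhlhe41: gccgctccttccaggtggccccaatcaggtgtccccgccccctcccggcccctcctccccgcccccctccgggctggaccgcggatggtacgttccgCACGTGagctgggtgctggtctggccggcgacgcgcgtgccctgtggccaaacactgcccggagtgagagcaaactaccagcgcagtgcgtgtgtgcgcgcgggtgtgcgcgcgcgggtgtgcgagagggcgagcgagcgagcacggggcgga
Tef: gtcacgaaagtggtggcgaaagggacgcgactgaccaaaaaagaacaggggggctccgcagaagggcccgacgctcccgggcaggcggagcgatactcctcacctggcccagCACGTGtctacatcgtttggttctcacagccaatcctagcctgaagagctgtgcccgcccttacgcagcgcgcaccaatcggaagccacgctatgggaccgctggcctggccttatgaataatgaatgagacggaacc
Ciart held 3 E-boxes, Bhlhe41 and Tef 1 each, and Per3 2 D-boxes. Searched on both strands, an E-box was found in 6.02% of 32851 RefSeq promoters of this length and a D-box in 0.819%. The 8 clock genes called below matched 10 promoters, of which 4 (of 3 genes) held an E-box and 1 a D-box. The tested clock list, called or not, matched 21 promoters of 15 genes. Of these promoters 6 (28.6%, of 5 genes) held an E-box and 1 a D-box, so the E-box is frequent in the list as a whole. The windows of Dbp, Nr1d2, Hlf and Arntl held neither run of letters. A match is a description of the sequence, not a measured binding site.

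Values are the authors' log2 RPKM after conditional quantile normalization, so a difference of 1 is a factor of 2, and differences are KO minus WT with the standard error (SE) of a limma fit that adjusts for sex and RIN. A gene is called, and is said to rise or fall, at a Benjamini-Hochberg adjusted p under 0.05 over all 23704 genes tested. Read depth is unknown from such values, so precision rests on the spread between mice. The sex label matched Xist in 12 of 12 libraries, and correlations between pairs of libraries lay between 0.9763 and 0.9864. Neuronal markers were high: the mean over 14 pan-neuronal genes was 10.66 to 10.72 in WT and 10.69 to 10.73 in KO, and none of the 14 was called. Genes of the cerebellum, which the labelled cerebral hemispheres do not include, were high as well, with Gabra6, a granule cell receptor subunit, at 8.94 to 9.49 in WT and 9.21 to 9.41 in KO.

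Tmem106b itself (ENSMUSG00000029571, chr6:13069759-13089269, mm10) followed the genotype labels in every mouse. Its value was 9.15 to 9.27 in WT (median 9.20), 8.56 to 8.62 in HET and 7.43 to 7.67 in KO (median 7.57), with no overlap between the 3 genotypes. The fall in KO was -1.65 ± 0.04 (SE; adjusted p = 8.96e-10 by limma), which leaves 31.9% of the WT level (95% interval 29.9 to 34.1). An exact two-sided permutation test over all splits of the 12 mice gave p = 0.00216, the smallest it can give. Within 10 Mb of the gene's start, 88 other genes were tested and 1 was called, Tac1, described below.

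In all, 260 genes were called, 1.10% of those tested: 102 rose (0.430%) and 158 fell (0.667%). The changes were small, with a median of 0.21 among rises and -0.26 among falls, and only 28 genes changed by more than 0.5, 14 in each direction. The median difference over all genes was 0.01. WT and KO values did not overlap for 484 genes (2.04% of those tested), and 186 of the 260 called genes were among them. Calls were frequent in 4 groups of genes: falls among oligodendrocyte and myelin genes and among vessel and meningeal genes, and rises among clock genes and genes linked to glucocorticoids.

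Genes of oligodendrocytes and myelin made up 85 tested members of 7 lists, of which 23 fell, 1 rose and 61 were not called (28.2% called). The median difference over the 85 was -0.11, against 0.01 over all genes. In bulk tissue, fewer oligodendrocytes and less RNA per oligodendrocyte cannot be told apart.

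Of 10 transcription factors that set oligodendrocyte identity, 4 fell and all 10 lay below WT. Their median difference of -0.22 was the lowest of the 7 lists. Sox10 (chr15:79154913-79164490), which drives myelin genes directly, was 7.74 to 8.25 in WT (median 7.82) and 7.30 to 7.51 in KO (median 7.46). No KO mouse reached the lowest WT mouse, and the fall was -0.45 ± 0.07 (adjusted p = 0.0148). Olig1 (chr16:91269772-91271933), a basic helix-loop-helix factor of the lineage, was 9.75 to 9.85 in WT (median 9.82) and 9.43 to 9.56 in KO (median 9.54), a fall of -0.29 ± 0.02 (adjusted p = 0.000312). Its relative Olig2 fell by 0.26 and Nkx6-2, a homeobox factor of mature oligodendrocytes, by 0.28. Myrf, the master regulator of myelination, differed by -0.18 ± 0.05 and was not called (adjusted p = 0.0963).

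Among the genes of the myelin sheath itself, of 10 compact myelin genes 4 fell, and 9 lay below WT. Mbp, the basic protein that zips the cytoplasmic faces of myelin together, was 11.42 to 11.62 in WT (median 11.52) and 11.25 to 11.41 in KO (median 11.33). The groups touched without overlap, and the fall was -0.18 ± 0.03 (adjusted p = 0.0234). Cldn11, the tight junction protein of myelin, fell by 0.24, and Mal, a raft protein of compact myelin, by 0.27.

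Among the 12 genes of non-compact myelin and the myelin surface, 5 fell. Opalin, a membrane glycoprotein of myelinating oligodendrocytes, was 6.97 to 7.56 in WT (median 7.31) and 6.41 to 6.98 in KO (median 6.76). The highest KO mouse overlapped the lowest WT mouse by a narrow margin, and the fall was -0.55 ± 0.10 (adjusted p = 0.0212). Cnp, a phosphodiesterase of uncompacted myelin whose locus overlaps Dnajc7, fell by 0.27, Ermn, a cytoskeletal protein of the same membranes, by 0.31, Mog, on the outer myelin surface, by 0.19 and Gjc3, a connexin, by 0.21. Mag, the adhesion molecule facing the axon, differed by -0.11 ± 0.04 and was not called (adjusted p = 0.257). In the list of myelin cytoskeleton 1 of 8 fell, Anln, a septin scaffold, by 0.31, and Tppp, which polymerizes tubulin, differed by -0.07 ± 0.04.

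Of 13 enzymes of myelin lipid synthesis 3 fell and 1 rose. Fa2h, which adds the hydroxyl group of myelin galactolipids, was 7.19 to 7.42 in WT (median 7.37) and 6.84 to 7.08 in KO (median 6.90). All 6 KO mice lay below all WT mice, a fall of -0.41 ± 0.05 (adjusted p = 0.00206). Ugt8a, which joins galactose to ceramide, was 7.84 to 8.01 in WT (median 7.94) and 7.19 to 7.68 in KO (median 7.56), a fall of -0.41 ± 0.06 (adjusted p = 0.00895). Gal3st1, which sulfates the product to sulfatide, fell by 0.28. The single rise of the group was in the same list: Kdsr, an early enzyme of sphingolipid synthesis that all cells use, rose by 0.21, a call kept by 1 of the 12 fits that left out 1 mouse. The other 9 lipid enzymes were not called, nor were any of 22 cholesterol synthesis genes (median 0.05).

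Of 23 further genes of mature oligodendrocytes 5 fell: Mcam, an adhesion molecule that vessels also express, by 0.36, Adamts4, a matrix protease, by 0.31, Cryab, a small heat shock protein, by 0.31, Gpr37, a receptor of the lineage, by 0.27 and Ndrg1 by 0.22. Enpp6, an enzyme that marks oligodendrocytes as they begin to myelinate, fell by 0.39, the only call among 9 genes of newly formed oligodendrocytes (median 0.01). None of 9 precursor genes was called. Pdgfra, the receptor that defines precursors, differed by -0.13 ± 0.05 (adjusted p = 0.241), and the precursor list had a median of -0.09.

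The gene lists were chosen with earlier results of these data known, so their choice may not be independent of cohort 2. The mice of cohort 2 gave the same contrast in animals that had no part in these calls. All 23 falls lay below WT there too, and 20 of the 23 had an unadjusted p under 0.05, against 4.27% of all genes tested. The median difference of the 24 called genes was -0.28 in cohort 1 and -0.26 in cohort 2. Fa2h differed by -0.36 ± 0.05, Ugt8a by -0.37 ± 0.09 and Opalin by -0.41 ± 0.09 in cohort 2, close to their cohort 1 values. Sox10 differed by -0.17 ± 0.05 and Olig2 by -0.09 ± 0.06. No gene of the group was called for a difference between cohorts.

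**Figure D1:**
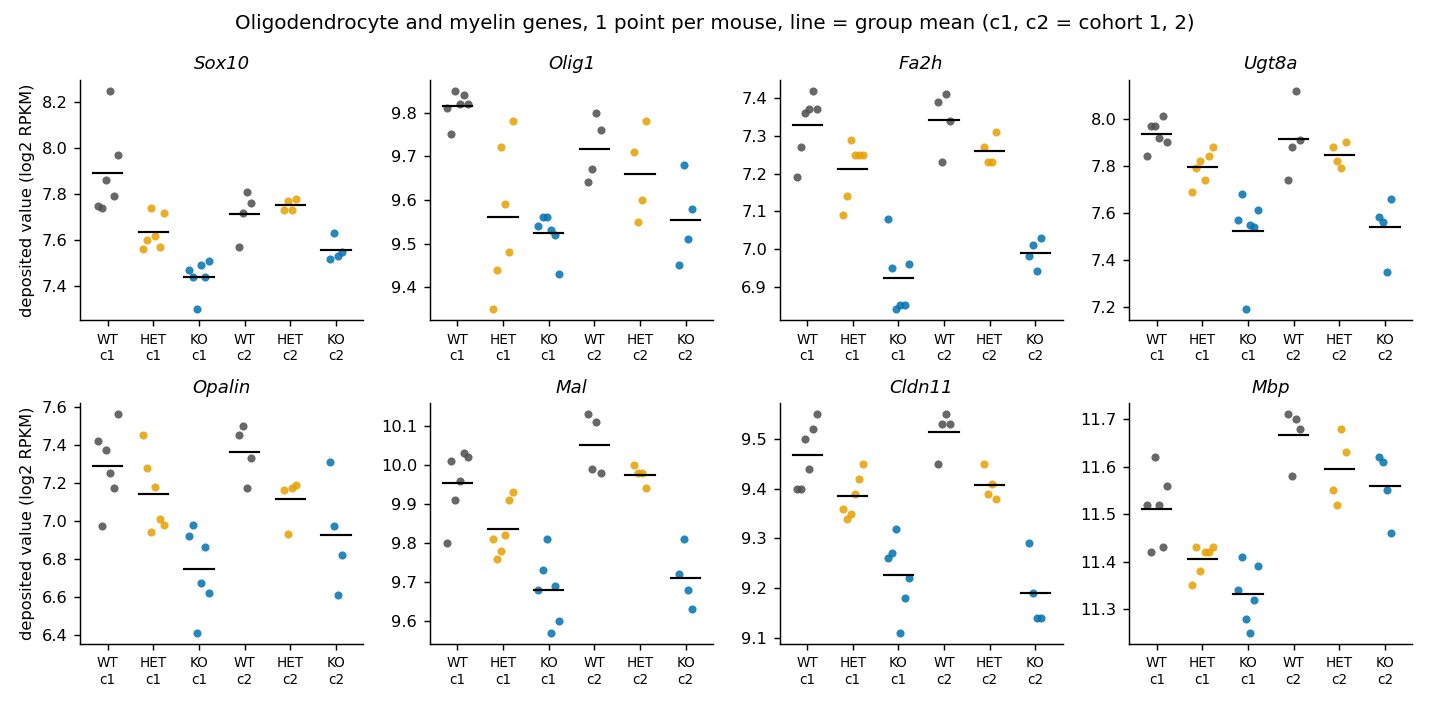
Deposited log2 RPKM of 8 oligodendrocyte and myelin genes in each mouse, by genotype and cohort (c1, cohort 1 with 6 mice a group; c2, cohort 2 with 4); each point is 1 mouse and the line is the group mean, and the y axes do not start at 0. The KO mean lies below the WT mean in both cohorts, and in cohort 1 the points do not overlap for the genes shown except Opalin and Mal.

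The count of 24 became smaller whichever mouse was left out, at 12 to 23. It was 12 without KO mouse 5 or WT mouse 3, 13 without WT mouse 5, 14 without WT mouse 6 and 16 without WT mouse 4. It was 7 without the intensity trend in the fit and 1, Olig1, with plate row added (described below). The calls of Enpp6, Gpr37 and Gal3st1 were each kept by 2 of the 12 fits that left out 1 mouse. Those of Mbp, Mog and Ndrg1 were kept by 5, Gjc3 by 6, Opalin and Olig2 by 7, Cryab by 8 and Mal and Mcam by 9. The calls of Sox10, Olig1, Nkx6-2, Cldn11, Cnp, Ermn, Anln, Adamts4, Ugt8a and Fa2h were kept by all 12.

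Circadian clock genes showed the largest share of calls of any list, 8 of 17 tested (47.1%), with 7 higher and 1 lower in KO. The rises were in Ciart, Dbp, Per3, Nr1d2, Bhlhe41, Tef and Hlf, and the fall was in Arntl, the activator at the head of the loop. With plate row added (described below) the count was 1, Ciart. It was 6 without the intensity trend, where Bhlhe41 and Hlf lost their calls, and 7 to 9 when 1 mouse was left out. The Hlf call was kept by 6 of the 12 fits that left out 1 mouse, and those of the other called clock genes by all 12.

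Ciart (chr3:95878503-95882251), a repressor of Clock and Arntl whose promoter held 3 E-boxes, was 5.60 to 6.20 in WT (median 6.16) and 6.69 to 7.16 in KO (median 7.09). Every KO mouse exceeded every WT mouse by a wide margin, a rise of 0.97 ± 0.09, or 1.96-fold (adjusted p = 0.000339). Dbp (chr7:45705088-45710155), the PAR bZIP activator, was 7.71 to 8.27 in WT (median 8.09) and 8.84 to 8.97 in KO (median 8.89). The 6 KO mice were tightly grouped, and the rise was 0.88 ± 0.08, or 1.84-fold (adjusted p = 0.000580). Its neighbour Sphk2, a sphingosine kinase chosen after its values were seen, overlaps it and rose by 0.37. Ciart overlaps C920021L13Rik and Per3 overlaps Camta1, and without strand information the reads of such pairs cannot be told apart. Tef and Hlf, the other PAR bZIP activators, rose by 0.22 and 0.15.

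Per3, the period gene with 2 D-boxes, was 6.09 to 6.25 in WT (median 6.15) and 6.44 to 6.70 in KO (median 6.60), a rise of 0.41 ± 0.04 (adjusted p = 0.000447). Nr1d2, the nuclear receptor REV-ERB beta that represses Arntl, was 8.41 to 8.55 in WT (median 8.52) and 8.81 to 8.94 in KO (median 8.87), a rise of 0.37 ± 0.03 (adjusted p = 0.000312). Bhlhe41, a repressor that competes for the E-box, rose by 0.39. Arntl was 7.32 to 7.71 in WT (median 7.51) and 6.88 to 7.13 in KO (median 7.08), with no overlap, a fall of -0.47 ± 0.05 (adjusted p = 0.00156). Per1 and Per2, the period genes that also respond to acute stimuli, differed by 0.42 ± 0.13 and 0.69 ± 0.16 and were not called (adjusted p = 0.142 and 0.0631). Npas2, which can take the place of Clock as partner of Arntl, differed by -0.21 ± 0.06 and was not called either (adjusted p = 0.0929). Outside the list, and chosen after their values were seen, Nfil3, the D-box repressor, fell by 0.40 (a call kept by 3 of the 12 fits that left out 1 mouse) and Usp2, a deubiquitinase that cycles with the clock, rose by 0.30.

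**Figure D2:**
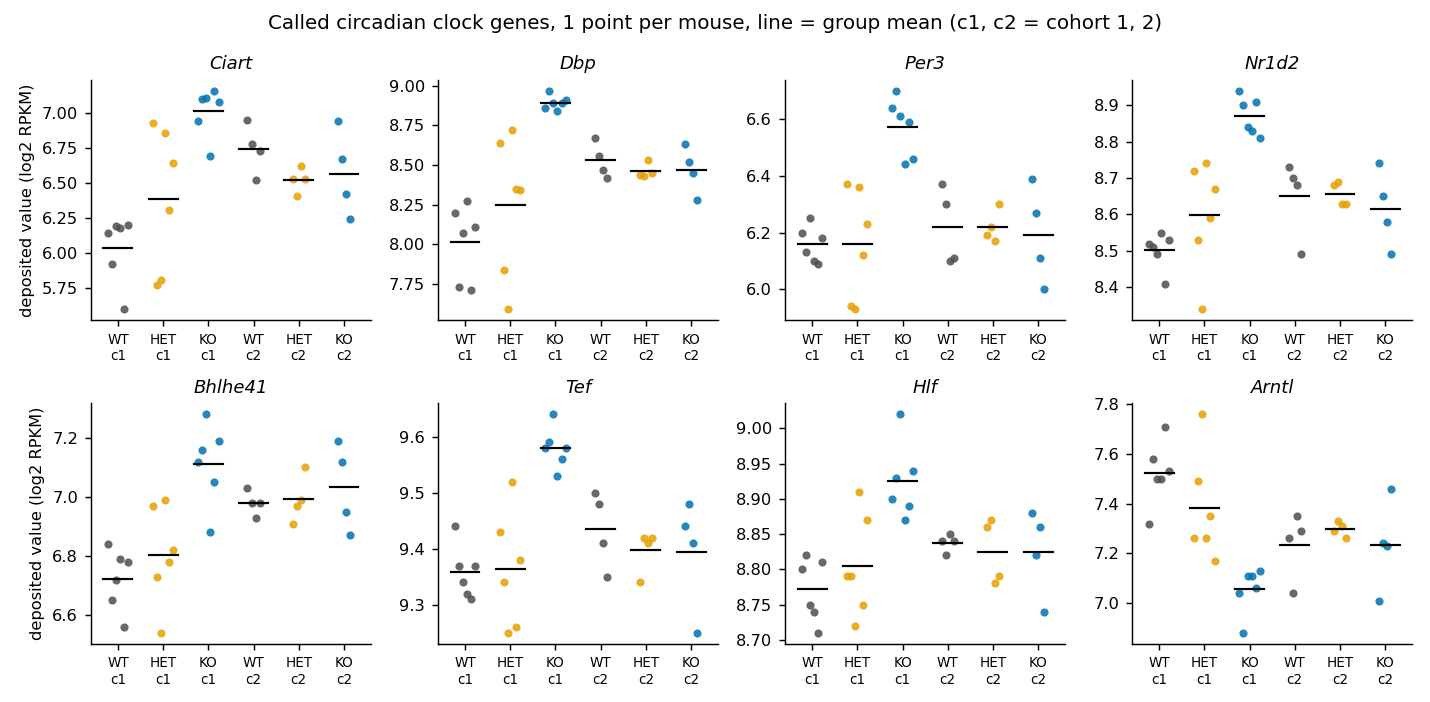
Deposited log2 RPKM of the 8 called clock genes in each mouse, by genotype and cohort (c1, cohort 1; c2, cohort 2); each point is 1 mouse and the line is the group mean, and the y axes do not start at 0. KO and WT separate without overlap in cohort 1 and overlap in cohort 2. For Dbp the 6 HET mice of cohort 1 spread from below the lowest WT mouse to above the highest (7.59 to 8.72) without reaching KO. HET mice 1 and 4 lie within the KO range for Ciart (6.93 and 6.86) and Bhlhe41 (6.97 and 6.99). For Hlf, HET mouse 4 does (8.91), with HET mouse 6 (8.87) at its lower edge. For Per3, Nr1d2, Tef and Arntl no HET mouse of cohort 1 reaches the KO range.

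The list's median was 0.22 in cohort 1 and -0.03 in cohort 2, where 2 of the 8 called genes had the same sign and none had an unadjusted p under 0.05. Dbp was 8.42 to 8.67 in WT and 8.28 to 8.63 in KO of cohort 2, between the WT and KO levels of cohort 1, and differed by -0.06 ± 0.08. Ciart differed by -0.17 ± 0.13 there. The difference between the cohorts was itself called for Ciart and Dbp (adjusted p = 0.00424 each, limma interaction) and for Nr1d2 (adjusted p = 0.0337). With all 30 libraries in the fit none of these 3 was called for it, and Nr1d2 kept it in 5 of 20 fits that left out 1 mouse and lost it with plate row added or without the intensity trend. The HET mice of cohort 1 did not form 1 group: Dbp was 8.64 and 8.72 in HET mice 1 and 4, 8.35 and 8.34 in mice 5 and 6, and 7.84 and 7.59 in mice 2 and 3. The hour of harvest, on which these transcripts are known to depend, was not tested.

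Vessel and meningeal genes gave 10 calls among 39 tested members of 3 lists (25.6%), 9 lower and 1 higher in KO, with a median of -0.10. The call with the lowest p was Cldn5 (chr16:18776847-18778260), the claudin that seals the blood-brain barrier. It was 9.30 to 9.46 in WT (median 9.32) and 8.30 to 8.72 in KO (median 8.52), far apart in all 12 mice. Its level fell by 42.5%, a difference of -0.80 ± 0.05 (adjusted p = 1.89e-05), and after Tmem106b no gene had a lower p. The HET mice of cohort 1 were split for Cldn5: mice 2 and 3 (9.44 and 9.33) lay within the WT range. Mice 1, 4, 5 and 6 (8.77, 8.76, 8.99 and 8.87) lay between KO and WT. For Dbp, mice 2 and 3 were the lowest HET mice and mice 1 and 4 the highest. Whether the 2 genes vary together was not tested.

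Other endothelial genes moved less and not all one way. Kdr, the main VEGF receptor, averaged 5.08 ± 0.08 in WT and 4.67 ± 0.12 in KO (SD), a difference of -0.41 ± 0.06 (adjusted p = 0.0112). The highest KO value, 4.82, lay below all WT values of Kdr. Tek, the angiopoietin receptor, fell by 0.34 and Pecam1, an adhesion molecule of endothelial junctions, by 0.31. Slc2a1, the glucose transporter of the barrier, rose by 0.26, and Mfsd2a, its lipid transporter, differed by 0.45 ± 0.10 without a call (adjusted p = 0.0586). Cdh5 and Flt1, further endothelial markers, differed by -0.16 ± 0.05 and -0.14 ± 0.04 and were not called. Of the 16 endothelial genes, 10 lay below WT and 6 above. Their summed linear level was 2423 to 2557 in WT and 2274 to 2399 in KO. Such a sum is weighted toward genes with high values, Cldn5 among them, so it does not show a fall across the list.

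Among mural cell genes Pdgfrb, the pericyte receptor, fell by 0.26, the only call of 11, and Acta2, smooth muscle actin, differed by -0.24 ± 0.14. Of 12 meningeal fibroblast genes 4 fell: Slc6a13, a GABA and taurine transporter, by 0.45, Igf2, a growth factor, by 0.31, Dcn, a matrix proteoglycan, by 0.24, and Col3a1, a fibrillar collagen at a low level (mean value under 3), by 0.94. Col1a1 differed by -0.41 ± 0.09 and was not called (adjusted p = 0.0564). The summed level of this list was 939 to 1155 in WT and 864 to 965 in KO.

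Some called genes outside the lists are known from matrix or vessels and are given singly, not as a group. Mmp14, a membrane-anchored matrix metalloproteinase, was 5.96 to 6.16 in WT (median 6.05) and 5.24 to 5.55 in KO (median 5.42), a fall of -0.64 ± 0.05 (adjusted p = 0.000312). Vstm4 fell by 0.60 and Mmp2, the gelatinase that Mmp14 activates, by 0.46, a call that 1 of the 12 fits without 1 mouse kept. Col4a1 and Col4a2, the type IV collagen chains of the basement membrane, fell by 0.33 and 0.24, and Col4a2 kept its call in 2 of the 12 fits. Slc6a12, the betaine and GABA transporter next in kind to Slc6a13, fell by 0.58, though this call was lost whichever mouse was left out.

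**Figure D3:**
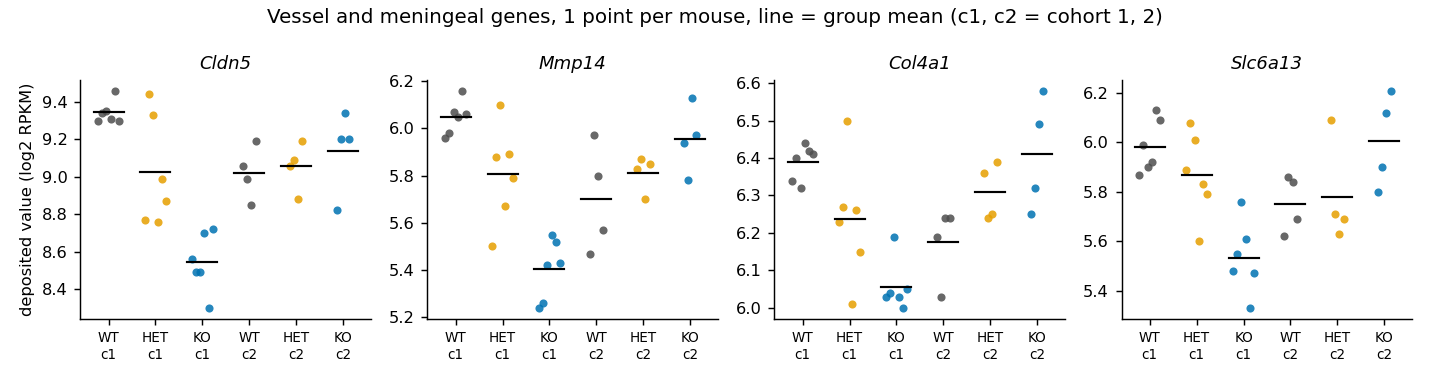
Deposited log2 RPKM of Cldn5, Mmp14, Col4a1 and Slc6a13 in each mouse, by genotype and cohort (c1, cohort 1; c2, cohort 2); each point is 1 mouse and the line is the group mean, and the y axes do not start at 0. KO lies below WT without overlap in cohort 1, and the KO mean lies above the WT mean in cohort 2.

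The median of the 10 called members was -0.32 in cohort 1 and 0.06 in cohort 2, where 3 of the 10 had the same sign and none of those an unadjusted p under 0.05. Cldn5 was 8.85 to 9.19 in WT and 8.82 to 9.34 in KO of cohort 2, a difference of 0.09 ± 0.10. Igf2 differed by 0.42 ± 0.09, Col4a1 by 0.23 ± 0.07, Col4a2 by 0.22 ± 0.06 and Slc6a13 by 0.26 ± 0.10 in the opposite direction to cohort 1. The difference between cohorts was called for Cldn5 and Col4a1 (adjusted p = 0.00424 each, limma interaction), Mmp14 (0.00770), Vstm4 (0.0173), Col4a2 (0.0277) and Slc6a13 (0.0379). Without single mice the count of 10 called members was 4 (KO mouse 1 or 5, or WT mouse 3) or 5 (KO mouse 2 or 3, or WT mouse 5 or 6), and it was 3 without the intensity trend and 1, Cldn5, with plate row added (described below). The calls of Slc2a1 and Igf2 were each kept by 3 of the 12 fits that left out 1 mouse, and that of Pdgfrb by 4. Those of Pecam1 and Col3a1 were kept by 5 and that of Tek by 7, while Cldn5, Kdr, Dcn and Slc6a13 kept theirs in all 12.

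Of 14 tested genes linked to glucocorticoids, which include genes induced by the stress hormone corticosterone in brain, 3 rose and 11 were not called, with a median of 0.38. The list holds genes that earlier analyses of these samples had picked out, so its direction is not independent evidence. Hif3a, a hypoxia-inducible factor subunit, was 2.64 to 3.16 in WT (median 2.87) and 3.68 to 5.01 in KO (median 4.11), a rise of 1.32 ± 0.18 (adjusted p = 0.00600). Plin4, a lipid droplet coat protein, was 2.23 to 3.01 in WT (median 2.73) and 3.62 to 5.84 in KO (median 3.97), a rise of 1.54 ± 0.29 (adjusted p = 0.0295). KO mouse 3 was the highest for both. The Plin4 call, at a locus that overlaps Hdgfrp2, was kept by 4 of the 12 fits that left out 1 mouse. Mt2, a metallothionein, rose by 0.68 ± 0.09 (adjusted p = 0.00564), and its neighbour Mt1 differed by 0.16 ± 0.05 (adjusted p = 0.147). Fkbp5 and Zbtb16, both classical glucocorticoid targets, differed by 0.46 ± 0.12 and 0.47 ± 0.12 with no overlap between the groups and no call (adjusted p = 0.0905 and 0.0726). Per1 belongs to this list as well as to the clock. In cohort 2 the median of the list was 0.05, and all 3 called genes lay above WT, Mt2 with an unadjusted p = 0.0213 (limma).

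Immediate early genes, which neurons switch on within minutes of activity, all lay below WT, 16 of 16, with a median of -0.60, and 1 was called. Their mean level ran from 6.60 to 7.80 over the WT mice and from 6.09 to 6.96 over the KO mice. Fos was 6.21 to 8.15 in WT (median 7.51) and 5.04 to 7.02 in KO (median 6.21). The groups overlapped, and the difference of -1.14 ± 0.30 was not called (adjusted p = 0.0909). Arc differed by -0.95 ± 0.22 (adjusted p = 0.0579). Ier2 fell by 0.55 ± 0.12 (adjusted p = 0.0440), a call that 9 of the 12 leave-one-out fits did not keep. The median in cohort 2 was -0.12.

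Markers of other tissues in the sample, choroid plexus and blood, were lower in KO without passing the test. All 14 choroid plexus genes lay below WT (median -0.45) and none was called. Folr1, a folate receptor of the plexus, was 4.65 to 5.09 in WT and 3.27 to 4.64 in KO (difference -0.69 ± 0.16, adjusted p = 0.0617), and Kl, the klotho gene, was 6.36 to 6.78 and 5.44 to 6.29. The summed level of the list was 7432 to 8494 in WT and 4474 to 7951 in KO, and in cohort 2 its median was 0.21. All 5 blood genes lay below WT (median -0.27) and none was called, while the median was 0.21 with plate row added and 0.60 in cohort 2, where all 5 lay above WT. The part of these differences in the results for vessel and meningeal genes was not tested.

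Listed genes of the compartment in which Tmem106b acts were not called. Since only 1.10% of all genes tested were called, no call in lists of this size is close to that share. None of 18 subunits of the proton pump of lysosomes (median 0.04), 30 lysosomal enzymes (median -0.01) or 17 lysosomal membrane proteins (median -0.01) passed the threshold. Above WT lay 13 of the 18 pump subunits, 12 of the 30 enzymes and 7 of the 17 membrane proteins. In cohort 2 these counts were 14, 23 and 7. Grn, the lysosomal progranulin gene, differed by 0.21 ± 0.15. Of 16 homeostatic and 17 disease-associated microglial genes none was called (medians 0.00 and 0.09), and Trem2, the microglial lipid receptor, differed by 0.21 ± 0.09. Sox9, a transcription factor of astrocytes, fell by 0.27, the only call of 17 astrocyte genes (median -0.01). Tac1, the precursor of substance P, rose by 0.31, the only call of 17 genes of inhibitory neurons and neuropeptides. Dnajb9, a chaperone of the endoplasmic reticulum, rose by 0.13, the only call of 16 genes of the unfolded protein response, and 1 of the 12 fits that left out 1 mouse kept it.

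The remaining genes with large changes were of mixed kinds. Ano2, a calcium-activated chloride channel, rose by 0.89 and Xdh, xanthine dehydrogenase of purine breakdown, by 0.64, both without overlap between the groups. Ctla2a, a protease inhibitor, rose by 0.52 and Tcap, a titin-binding protein of muscle, by 0.50, the latter call kept by 4 of the 12 fits. Ighg2c, an antibody heavy chain of a family of near-identical genes, rose by 0.54, a call kept by 1 of the 12 leave-one-out fits. Car12, a carbonic anhydrase, fell by 0.46, and Tbx1, a T-box transcription factor, fell by 0.68, a call likewise kept by 1 of 12. In all, 28 called genes had a mean value under 3 or a predicted-gene name (Col3a1 among them), and their differences ran from -1.30 to 1.69.

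Across all 260 called genes, 162 had the same sign in cohort 2 (62.3%, against 51.2% of all genes tested), 109 of the falls and 53 of the rises. In cohort 2, 46 had an unadjusted p under 0.05 (17.7%, against 4.27% of all genes). Of these, 39 had the same sign, 36 of them falls, and 20 of the 36 were the oligodendrocyte and myelin genes above. With 4 mice a group the fit in cohort 2 called 1 gene, Tmem106b, at -1.64 ± 0.05, and 1012 genes had an unadjusted p under 0.05.

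**Figure D4:**
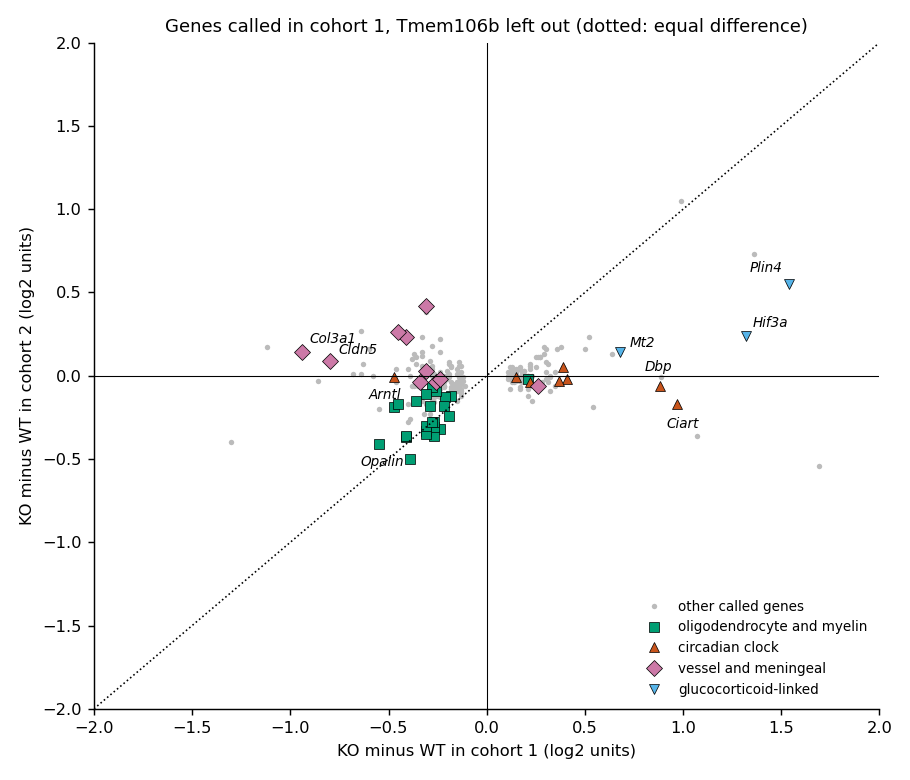
KO minus WT in cohort 1 (x axis) against cohort 2 (y axis), in log2 units, for the genes called in cohort 1 other than Tmem106b; colours and shapes mark the 4 gene groups and the dotted line marks equal differences. Myelin genes lie near the dotted line, while clock genes and most vessel and meningeal genes lie near or across the horizontal 0 line (Cldn5 -0.80 and 0.09, Dbp 0.88 and -0.06).

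The interaction of genotype and cohort was fitted over 20 libraries, 12 of which also gave the cohort 1 calls, so some overlap of the calls is built in. It was called for 15 genes (0.0633% of those tested), and all 15 were also called in cohort 1. Besides the clock, vessel and matrix genes given above they included Zfp36l1 and Zfp36l2, which bind AU-rich RNA and promote its decay and which fell by 0.37 and 0.29 in cohort 1, Kank1, a cytoskeletal adaptor that fell by 0.36, and Tprkb, a tRNA-modifying subunit that fell by 0.14. Kank1 and Zfp36l2 were outside the naming rule and were chosen after their values were seen. The other two, Gm9828 and Gm26669, are predicted genes. Ciart, Dbp, Cldn5, Col4a1, Mmp14 and Zfp36l1 kept the call in all 20 fits that left out 1 mouse. Over all 30 libraries Cldn5, Col4a1, Mmp14, Vstm4, Zfp36l1 and Tprkb kept it and the other 9, the clock genes among them, did not. The interaction of genotype and sex within cohort 1 was called for 0 genes by limma, with 1973 at an unadjusted p under 0.05. All 260 called genes had the same sign in females and in males. The same mice served to call these genes, which favours equal signs, so the agreement is not an independent check.

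The titles give each library a position on a plate, whose purpose is not stated, and in cohort 1 it ran nearly parallel to genotype. KO libraries sat in rows A, B and E and WT libraries in rows D, E and F, so that only row E held both, with KO mouse 6 beside 3 WT mice. The row was added as a further term by its place in the alphabet, a straight line that does not cover row effects of other shapes. With it 5 genes were called, Tmem106b, Cldn5, Ciart, Olig1 and Mir1903. The SE of the 260 called genes rose by a median factor of 1.69. Their differences kept their sign in 260 of 260 and were a median of 0.927 of the original, and 222 of them had an unadjusted p under 0.05. KO mouse 6 can be set against a comparison that does not use it. Of the 259 genes called without it, it lay beyond all 6 WT mice on the side of the other KO mice for 170 (65.6%, against 21.8% of all genes). The same 6 WT mice served both to choose these genes and to score KO mouse 6. That choice favours values beyond the WT mice, so the 2 percentages are not an independent check. The values of KO mouse 6 for single genes are given as a description. For Dbp KO mouse 6 was at 8.91, with the WT mice of row E between 7.71 and 8.27, and for Cldn5 at 8.72 against 9.31 to 9.46. Apart from row E, plate row and genotype cannot be told apart in these 12 libraries.

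**Figure D5:**
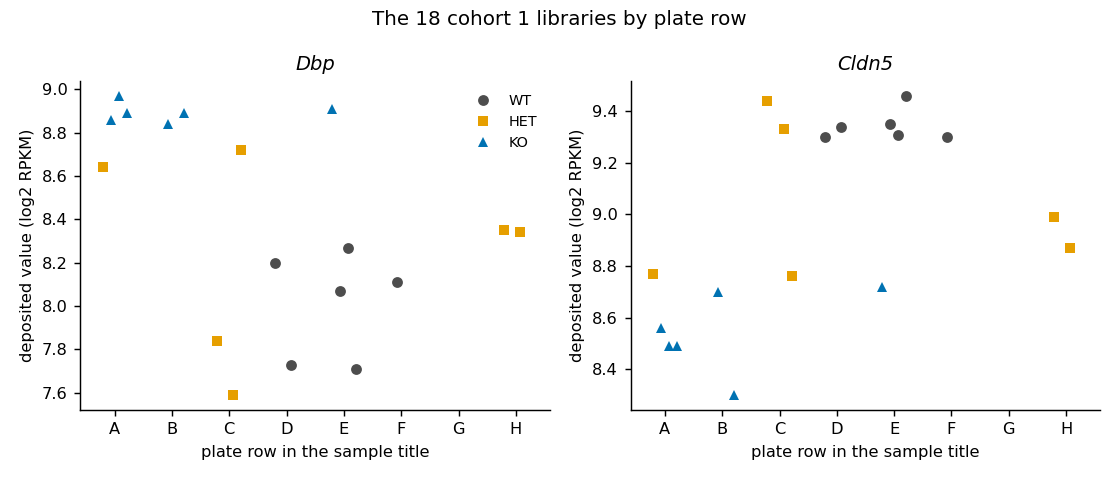
Deposited log2 RPKM of Dbp (left) and Cldn5 (right) in the 18 libraries of cohort 1 by the plate row of the sample title; each point is 1 mouse, marked by genotype, and the y axes do not start at 0. KO mouse 6 in row E lies with the other KO mice (Dbp 8.91, Cldn5 8.72), and the 3 HET mice of row C lie apart from each other (Dbp 7.59, 7.84 and 8.72), none of them within the KO range.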

How the data were processed

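Per the submitters' processing notes, the tools were TopHat2 2.0.12 and Bowtie 1.1.0 and the genome build was mm10. How reads were counted, with which annotation, strand setting and filters, is not given in the sources used here. Deposited by the authors was 1 table of 34871 genes by 30 libraries whose values are conditional-quantile-normalized log2 RPKM (reads per unit of length and library size), per the file headers. This normalization pulls libraries together and removes trends with gene length and GC content, so values compare libraries and depth is unknown. All 30 sample columns were matched to mice by title, and 0 columns belonged to other samples.

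Genes with a mean above 0 in the 12 libraries (23704) were fitted in limma 3.58.1 (R 4.3.3) with genotype, sex and RIN, a moderated two-sided test with an intensity trend, and Benjamini-Hochberg adjustment, called at adjusted p under 0.05 with 8 residual degrees of freedom (4 in cohort 2). Interactions with cohort used 20 libraries and those with sex the 12. The code was tested on simulated data.

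The members and the 42 gene lists were chosen with earlier results of these data known. Named genes are Tmem106b, the 12 largest rises and falls and the 10 lowest p among called genes with a mean of at least 3 and no predicted-gene name, called list members with up to 4 uncalled ones a list, and up to 10 genes called for each interaction. Alternatives covered covariates (plate row included, as a linear term), the libraries fitted, the filter, scaling, the variance model and leaving out each mouse. Mouse numbers follow accession order and imply no pairing. Some list members that were counted are not reported here by name.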

Additional observations from a re-analysis of the deposited data

Results flagged for a closer look

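Within each group of 6 cohort 1 mice, the named called genes and the list means were examined for a mouse whose gap to its nearest neighbour, as a share of the group's range, was over Dixon's 95% critical value. This was met in 20 of 228 groups of values (8.77%), and chance alone meets it in about 1 in 20. KO mouse 3 accounted for 8 of the 20. It was high for Plin4 (5.84, the next mouse 4.19), Slc2a1 (8.92, next 8.65), Col4a1 (6.19, next 6.05), Zfp36l2 (7.12, next 6.98) and the mean of the glucocorticoid-linked genes (7.27, next 6.70). It was low for Sox10 (7.30, next 7.44), Ugt8a (7.19, next 7.54) and Tprkb (8.38, next 8.43). In other KO mice, Sphk2 was high (7.67) and Olig1 low (9.43) in mouse 6, Arntl low in mouse 2 (6.88) and Car12 low in mouse 4 (5.44). In WT, mouse 2 was high for Kdr (5.23) and for the mean of the unfolded protein response (7.75), and low for Cnp (10.25) and the mean of the non-compact and surface myelin genes (7.96). Cldn5 was high in WT mouse 5 (9.46), Zfp36l2 in WT mouse 3 (7.41) and the mean of hypothalamus and pituitary genes in WT mouse 4 (6.30), and the mean of neuronal genes was low in WT mouse 6 (10.66).

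The KO minus WT difference itself differed between the cohorts for 15 genes (limma interaction, adjusted p under 0.05). As cohort 2 minus cohort 1, the change was 0.90 for Cldn5, 0.89 for Mmp14, 0.77 for Vstm4, 0.69 for Slc6a13, 0.55 for Col4a1, 0.50 for Zfp36l1, 0.48 for Gm26669, 0.47 for Kank1, 0.45 for Col4a2, 0.38 for Zfp36l2 and 0.23 for Tprkb. It was -1.14 for Ciart, -0.94 for Dbp, -0.40 for Nr1d2 and -0.38 for Gm9828.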

How the results depend on the processing

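All 260 called genes kept their direction under every alternative that tested them (251 of them with the filter at a mean above 3), while the number past the threshold moved widely. From 260 (102 higher and 158 lower), it was 424 without RIN (187 higher), 483 over the 18 libraries of cohort 1 (206 and 277), 593 over all 30 libraries (271 and 322), 442 with a mean above 3 (182 and 260), 168 with no filter (61 higher), 64 without the intensity trend (22 and 42) and 5 with plate row added (1 and 4). Leaving out 1 mouse gave 88 (without WT mouse 3) to 272 calls (without WT mouse 1), 30 to 106 higher and 58 to 167 lower. Genotype alone, no sex, median centring, quantile normalization, robust moderation and library weights gave 227 to 356. With plate row added 1 called member was left among the oligodendrocyte and myelin genes (Olig1), the clock genes (Ciart) and the vessel and meningeal genes (Cldn5), and 0 among the glucocorticoid-linked genes. The 15 interactions with cohort became 8 without the intensity trend, 8 over 30 libraries and 5 with plate row added (Ciart, Dbp, Cldn5, Col4a1 and Mmp14), and 6 to 22 when 1 mouse was left out. The interaction with sex gave 1 call without RIN, and cohort 2 alone gave 4 without the intensity trend. Counts per gene group, plate row for both cohort 2 fits and the left-out mice of the interaction were chosen after seeing the data. The cause of these shifts was not tested. No paired analysis was possible because the labels give no replicate numbers. Depth is unknown from these values, so what it limits cannot be stated.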

Other observations

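Pituitary hormone genes, which enter a brain sample with adhering tissue, differed widely between mice of the same group. Gh, growth hormone, was -0.55 to 7.49 in WT (median 1.37) and 3.76 to 7.20 in KO (median 4.77) of cohort 1, and 0.37 to 12.65 in the KO mice of cohort 2. Its difference of 3.34 ± 1.15 was the largest of any gene tested and was not called (adjusted p = 0.194).

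Genes of energy and protein production were slightly above WT as lists with no call: 21 of 28 respiratory chain genes (median 0.04) and 26 of 30 ribosomal protein genes (median 0.04), with cohort 2 medians of -0.02 and -0.00. Cholesterol synthesis genes lay above WT in 17 of 22 in cohort 1 (median 0.05) and below WT in 22 of 22 in cohort 2 (median -0.04), with no call in either. Steap4, a metalloreductase listed with reactive astrocytes, was 1.50 to 2.46 in WT and -0.07 to 1.42 in KO of cohort 1 without overlap, a difference of -1.24 ± 0.27 that missed the threshold (adjusted p = 0.0517).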
